A study of Mus musculus with 24 samples.

Results

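The genes described here are the 200 whose RNA was most strongly enriched by immunoprecipitation (IP) with an antibody against N6-methyladenosine (m6A) in unmutated mouse embryonic stem (ES) cells. They were taken from 10388 genes that passed a minimum of 5 CPM (reads scaled to a common library total) in each of 4 control input libraries, out of 47937 genes counted. For each of the 4 pairs of control IP and input libraries the log2 ratio of IP CPM + 1 to input CPM + 1 was computed, and genes were ordered by the lowest of their 4 ratios. The members were thus chosen by the IP and input values of the control lines, and the high control ratios below describe that choice and test nothing. The last genes inside the limit were Rbmxl2, Timm8b and Zfp62, with lowest ratios of 1.605, 1.605 and 1.604, and the first genes outside it were 4930470G03Rik, Islr2 and Cmklr1, with 1.603, 1.601 and 1.601, so that nothing separates rank 200 from rank 201.

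m6A is the most common internal modification of mRNA and is written while transcripts are made by a methyltransferase complex in which METTL3 is the catalytic subunit and METTL14 helps to bind the RNA. The complex prefers adenosines in a short context of which GGACT, read on the RNA strand, is the best known form, and marked sites are frequent in long exons and near stop codons. Reader proteins bind the mark and affect splicing, export and decay, and in ES cells many transcripts of pluripotency and developmental regulators carry it. In MeRIP-seq, fragments of RNA are pulled down with an antibody against m6A and sequenced beside the input RNA, so that a gene with many reads in the IP relative to the input holds more antibody-bound fragments.

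Nuclear RNA was compared between 4 lines grown on gelatin in medium with Serum Replacement and LIF. WT26 is a wild-type ES line, and the Mettl14 KO cells are clone A10, made from WT26 with CRISPR/Cas9 and carrying a frameshift deletion in Mettl14. RBC is an ES line with BirA-V5 at the Rosa26 locus and Cre-ERT2, and the Mettl3 KO cells are clone 2c4d, made from RBC, so that RBC and Mettl3 KO cells share those transgenes and each knockout is 1 clone. Each line gave 2 biological replicates of input and IP (16 MeRIP-seq libraries with 9394163 to 28441282 counted reads) and 2 of RNA-seq (8 libraries with 11321459 to 13743181 reads), and the input and IP of one number come from the same RNA. In RNA-seq the targeted genes still gave reads, with Mettl14 at 401 and 358 normalized counts in WT26 and 296 and 316 in Mettl14 KO cells, and Mettl3 at 928 and 979 in RBC and 880.03 and 821 in the Mettl3 KO cells, so that transcript level does not check the genotype.

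The members held at least 11 reads per input library, with library medians of 99 to 294, and at least 97 reads per IP library, with medians of 664 to 1452, so that the input count is the less precise part of each ratio. Over the whole MeRIP-seq table the second pair of each line stood apart from the first, and 199 members in WT26, 188 in Mettl14 KO, 194 in RBC and 184 in the Mettl3 KO cells had the higher ratio in replicate 2. The other genes did not share this direction. Their median log2 ratio was higher in replicate 2 only in WT26 (0.32 and 0.41). It was lower there in Mettl14 KO (0.40 and 0.17), RBC (0.52 and 0.15) and Mettl3 KO cells (0.35 and 0.17). Results are therefore given for each replicate number, and wherever leaving out 1 library pair changes a result this is stated.

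Of the 12 highest ranked members, 10 hold GGACT in their longest annotated transcript, and Gm13841 and Gm10800 do not. The 8 windows below show the GGACT nearest to the last coding base of that transcript, 5′ to 3′ on the RNA strand with GGACT in capitals (GRCm38, GENCODE annotation), since this is the context that the methyltransferase complex prefers.
Epop: tggaagatccaaGGACTggcgtccgggaa
Imp3: tgtcacctgggtGGACTcatccaagatca
Fzd10: gggtgtgggtctGGACTtccaagaccctg
Nodal: caagttccaggtGGACTtcaacctgattg
Mfsd5: ctggcagtggcaGGACTcttcaccgtggt
Ier2: aggccaggggaaGGACTgaggagcgaggg
Sephs2: ctacccgctcagGGACTgctggccagggt
Ddx28: agaagccttccaGGACTagcatcttcagt
The window of Epop, which encodes an elongin- and Polycomb-associated protein of ES cells, lies at chr11:97627951-97627979 on the minus strand, 210 bases after the last coding base. Imp3, a U3 small nucleolar ribonucleoprotein subunit, has its window at chr9:56937977-56938005 on the plus strand, 67 bases before the last coding base. Fzd10 encodes a Wnt receptor and has the window at chr5:128602776-128602804 on the plus strand, 173 bases before that base. Nodal, the TGF-beta ligand that patterns the early embryo, has it at chr10:61423556-61423584 on the plus strand, 277 bases before the end of coding sequence. The window of Mfsd5, a membrane transporter, is at chr15:102281455-102281483 on the plus strand, 75 bases before. Ier2 is an immediate early gene with the window at chr8:84661951-84661979 on the minus strand, 124 bases after, and Sephs2, a selenophosphate synthetase, has it at chr7:127272497-127272525 on the minus strand, 53 bases after. In Ddx28, an RNA helicase of mitochondria, it lies 39 bases before the last coding base at chr8:106009830-106009858 on the minus strand.

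These letters are common in other genes as well. A search for GGACT on the RNA strand alone found it within 100 bases of the stop codon in 49 of 171 members with a full window (28.7%) and in 2163 of 8785 other genes (24.6%) with windows of the same length, and in the members' longest transcripts its median density was 1.16 per kb against 0.999 per kb. In 23 of 198 annotated members (11.6%) the longest transcript held no GGACT, against 9.59% of other genes, and a match or its absence is a description of the sequence only.

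What the members share most visibly is gene structure, which the rule did not use. Of 179 protein-coding members, 44 (24.6%) had a single exon in their longest transcript, against 1.23% of 9118 other protein-coding genes that passed the input minimum, and 86 (48.0%) had at most 2 exons, against 3.58%. Only 2.79% had 10 exons or more, against 54.1% of the others. The median annotated member spanned 5523 bases of genome, of which 56.6% was exonic, whereas the median of 10159 other genes was 24439 bases with 20.004% exonic. The longest transcript had a median length of 2836.5 bases in members and 3274 in other genes, and the longest exon 2190 and 2046 bases. Single-exon members include the transcription factors Foxd3, Sox2, Jund and Junb, and Hist1h1c, a linker histone. The numbers of exons are those of the annotation and were not read from these libraries.

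**Figure D1:**
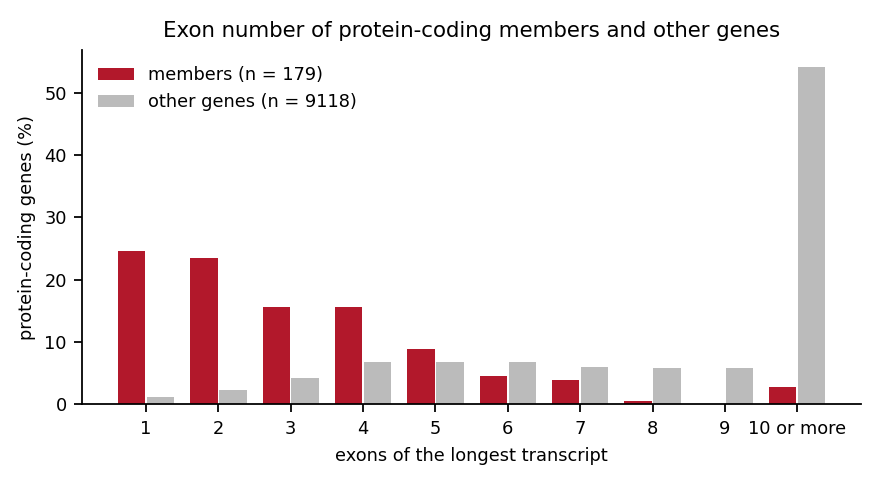
Share of protein-coding genes (y axis, percent) by number of exons in the longest annotated transcript (x axis, 10 or more pooled), for 179 members in red and 9118 other genes that passed the input minimum in grey. Members crowd at 1 to 4 exons, and 54.1% of the other genes but 2.79% of the members have 10 or more.

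In the control lines the median member had log2 ratios of 1.77 and 2.77 in the pairs of WT26 and 1.89 and 2.53 in those of RBC, and the other genes had medians of 0.32 and 0.41 in WT26 and 0.52 and 0.15 in RBC. In Mettl14 KO cells, which the rule did not use, the members' medians were 1.80 and 2.48 (other genes 0.40 and 0.17). In Mettl3 KO cells they were 1.34 and 1.91 (other genes 0.35 and 0.17). The means of both pairs had medians of 2.27 in WT26, 2.19 in RBC, 2.13 in Mettl14 KO and 1.63 in the Mettl3 KO cells, and 183 of the 200 members had their lowest mean in Mettl3 KO cells, 11 in Mettl14 KO, 5 in RBC and 1 in WT26. The rule chose high control ratios, so the low counts for RBC and WT26 largely follow from it. The lowest line was not counted over all genes that passed the input minimum.

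**Figure D2:**
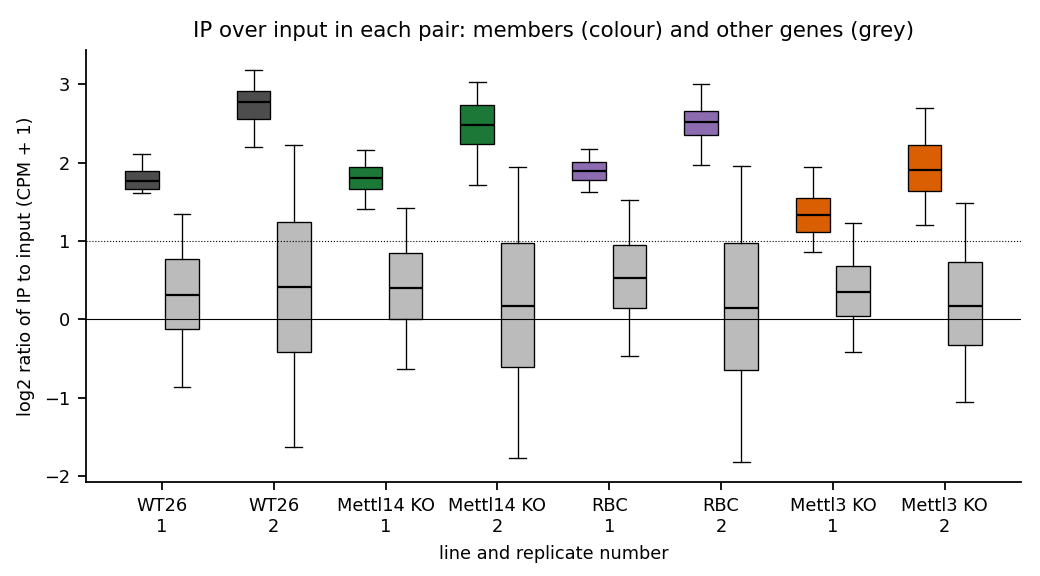
Log2 ratio of IP to input (y axis, CPM + 1) in each pair of libraries (x axis, line and replicate number), with boxes from the lower to the upper quartile, a line at the median and whiskers at the 5th and 95th percentiles, for 200 members in colour and 10188 other genes in grey. The member boxes lie above the grey ones in every pair, and the Mettl3 KO boxes, with medians of 1.34 and 1.91, lie below those of the same number in the other lines.

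Among the leading members, Gm13841, annotated as a processed pseudogene, had the highest rank, with log2 ratios of 2.90 and 2.82 (WT26), 2.12 and 2.35 (Mettl14 KO), 2.39 and 2.92 (RBC) and 2.39 and 1.75 (Mettl3 KO). Its ratio in Mettl3 KO replicate 1 was as high as in RBC replicate 1, whereas replicate 2 was lower. Epop, ranked next, had log2 ratios of 2.37 and 2.82 (WT26), 2.47 and 2.82 (Mettl14 KO), 2.14 and 3.01 (RBC) and 1.78 and 2.33 (Mettl3 KO). Nodal had log2 ratios of 2.09 and 3.16 (WT26), 2.11 and 3.06 (Mettl14 KO), 2.14 and 2.73 (RBC) and 1.50 and 2.16 (Mettl3 KO). Its Mettl3 KO pair was the lowest of each replicate number, and in replicate 1 the other lines were close to each other. Fam43a, whose protein has a phosphotyrosine-binding domain, also had its lowest ratio of each number in Mettl3 KO cells, with log2 ratios of 2.13 and 3.09 (WT26), 2.14 and 2.95 (Mettl14 KO), 2.10 and 2.91 (RBC) and 1.50 and 2.39 (Mettl3 KO). Sf3b5, a subunit of the SF3b splicing complex, had log2 ratios of 2.28 and 3.02 (WT26), 2.17 and 2.84 (Mettl14 KO), 2.08 and 2.63 (RBC) and 1.56 and 2.19 (Mettl3 KO), again with Mettl3 KO cells lowest in both numbers. Gm10800 differed from the others, with log2 ratios of 2.13 and 2.81 (WT26), 1.05 and 1.20 (Mettl14 KO), 2.54 and 2.64 (RBC) and 1.47 and 1.21 (Mettl3 KO). Here both knockouts lay below both control lines in every pair, and the Mettl14 KO ratios were the lowest. Gm10800 is annotated as protein-coding at chr2:98666547-98667301, and whether its reads are shared with repeats was not tested.

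**Figure D3:**
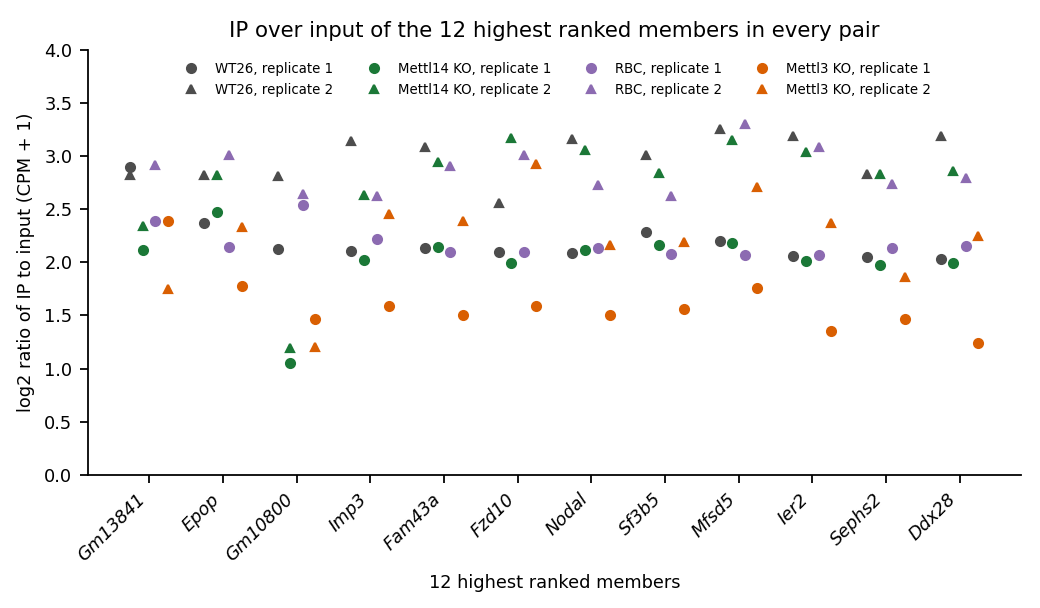
Log2 ratio of IP to input (y axis, CPM + 1) of the 12 highest ranked members (x axis) in each of the 8 pairs, circles for replicate 1, triangles for replicate 2 and colours for lines. Replicate 2 is higher for most members, Mettl3 KO points lie lowest in most, and Gm10800 has Mettl14 KO points at 1.05 and 1.20.

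In Mettl14 KO cells the members kept high IP over input. All 200 had a log2 ratio above 1 in both pairs, against a background of 15.7% of the genes that passed the input minimum. In the edgeR fit, 194 of the 200 were enriched (adjusted p not over 0.05, fitted log2 enrichment above 1), where 11.9% of the 22621 features tested were, with a median fitted log2 enrichment of 2.03 and standard errors of 0.25 to 0.83. The call rests on replicate 2 of this line, since it was kept for most members without Mettl14 KO replicate 1 and lost without replicate 2. DESeq2 on all libraries called 197. The highest fitted values belonged to Gm11175 (3.18 ± 0.83), Foxd3 (2.88 ± 0.58) and Gbx2 (2.87 ± 0.53), followed by Jund (2.72 ± 0.70), Fzd10 (2.67 ± 0.53) and Mfsd5 (2.66 ± 0.53). Foxd3 and Gbx2 encode transcription factors of pluripotent and early embryonic cells. Gm11175 lies within the single exon of Jund on the opposite strand (chr8:70699162-70700080 inside chr8:70698949-70700616), and whether the MeRIP-seq counting used strand is not given in the sources used here, so the values of this pair cannot be told apart.

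Among the members that were lowest in Mettl14 KO cells were Gm10800 (0.90 ± 0.63), Mrps24 (1.09 ± 0.33), 2310043M15Rik (1.15 ± 0.46), Gm33051 (1.30 ± 0.66) and Timm8b (1.38 ± 0.29). Mrps24 encodes a mitochondrial ribosomal protein and Timm8b a chaperone of mitochondrial protein import. 2310043M15Rik, an antisense RNA at chr16:93792136-93794901, had log2 ratios of 1.62 and 2.58 (WT26), 1.12 and 1.30 (Mettl14 KO), 1.80 and 1.85 (RBC) and 0.77 and 1.63 (Mettl3 KO). Both knockouts were below their control lines in each number for this RNA, and it also had one of the largest falls in RNA-seq, described below. It overlaps an exon of Dop1b on the opposite strand, and with the strand setting not given its values cannot be told apart from those of Dop1b. Mrps24 had log2 ratios of 1.74 and 2.14 (WT26), 1.37 and 1.23 (Mettl14 KO), 1.71 and 2.38 (RBC) and 1.34 and 0.59 (Mettl3 KO), with the second pair of each knockout well under that of its control.

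In Mettl3 KO cells the enrichment was smaller but still present. Of the 200 members, 168 had a log2 ratio above 1 in both pairs (background 9.43%), and all 200 were above 0 in both. The edgeR fit called 70 enriched, against 2.54% of all features tested, with a median fitted log2 enrichment of 1.45, and 190 had an unadjusted p under 0.05. This count differed between fits, as DESeq2 called 152, library size scaling 182, a fit with no filter on low counts 184, a fit on the 4 Mettl3 KO libraries alone 180, and a fit with a block for the replicate number within input and within IP 183 (8.50% of all features). The share of all features thus differed between fits too, and it is not given here for the others. The counts above 70 are not read as a result about the members. No share of all features was taken at the unadjusted p. The edgeR calls were lost when either Mettl3 KO replicate was left out, with median fitted enrichments of 1.81 without replicate 1 and 0.97 without replicate 2. The highest fitted values were those of Hist1h1c (2.39 ± 0.41), Snrpd2 (2.38 ± 0.29) and Nup62 (2.37 ± 0.56), then Tma7 (2.30 ± 0.33), Basp1 (2.24 ± 0.31) and the lincRNA 2900097C17Rik (2.21 ± 0.57). Snrpd2 is a core protein of spliceosomal ribonucleoproteins and Nup62 a nuclear pore protein.

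Among the lowest values in Mettl3 KO cells were those of B3gnt7 (0.20 ± 0.36), Gm38058 (0.53 ± 0.39), Tmem185b (0.60 ± 0.38), Klhl26 (0.65 ± 0.35) and Tob1 (0.69 ± 0.35). Gm38058 overlaps an exon of Fzd5 on the opposite strand, so its values have the limit given above for 2310043M15Rik. B3gnt7, a glycosyltransferase gene at chr1:86302832-86307305, had log2 ratios of 1.64 and 2.39 (WT26), 1.48 and 2.09 (Mettl14 KO), 1.63 and 2.13 (RBC) and 0.27 and 0.73 (Mettl3 KO). Both Mettl3 KO pairs lay below every other pair, and both Mettl14 KO pairs lay within the range of the controls or just under it. Tmem185b, a gene for a membrane protein at chr1:119526160-119528983, had log2 ratios of 1.66 and 2.82 (WT26), 1.64 and 2.24 (Mettl14 KO), 1.95 and 2.55 (RBC) and 0.69 and 0.92 (Mettl3 KO). Tob1, which encodes a protein that links mRNAs to deadenylation, had log2 ratios of 1.65 and 2.34 (WT26), 1.92 and 2.05 (Mettl14 KO), 1.91 and 2.02 (RBC) and 0.87 and 1.03 (Mettl3 KO). For these genes the Mettl3 KO pairs did not overlap those of any other line. At the other end, 7 members were higher in Mettl3 KO than in RBC cells in both replicate numbers, where 3122 of the 10388 genes were. Among them, Snrpd2 had log2 ratios of 2.02 and 2.24 (WT26), 2.07 and 1.84 (Mettl14 KO), 2.06 and 1.89 (RBC) and 2.22 and 2.87 (Mettl3 KO). Basp1, a gene for a membrane-bound signalling protein, had log2 ratios of 1.76 and 1.90 (WT26), 1.92 and 2.17 (Mettl14 KO), 1.84 and 1.92 (RBC) and 2.09 and 2.73 (Mettl3 KO), and in both genes the Mettl3 KO pairs were the highest of their number.

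**Figure D4:**
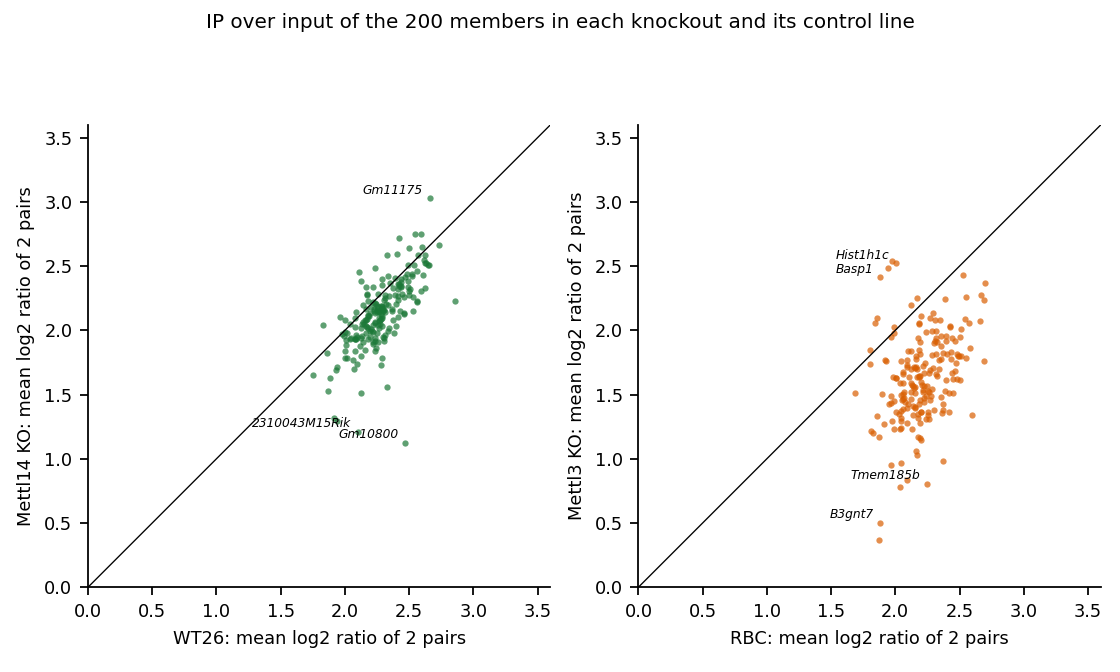
Mean log2 ratio of IP to input (CPM + 1) of the 2 pairs of a knockout (y axis) against that of its control line (x axis) for the 200 members, Mettl14 KO against WT26 on the left and Mettl3 KO against RBC on the right, with the line of equality. Mettl14 KO points lie close to the line and mostly below it (168 of 200), with a median change of -0.13, and Mettl3 KO points lie further below it (190 of 200), with a median change of -0.59, except for a few such as Basp1 and Hist1h1c.

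The changes from the control lines are given as description, since the control values chose the members. Mettl14 KO minus WT26 had a median of -0.13, with 81 members (40.5%) lower in both replicate numbers, where 24.2% of all genes that passed the input minimum were. Mettl3 KO minus RBC had a median of -0.59, with 178 members (89.0%) lower in both numbers, where 46.3% of all such genes were.

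To keep the compared control line out of the choice, genes were ranked again on the control line that a comparison does not use. This choice is not independent of the compared lines, since replicate deviations of IP over input were correlated between lines. The correlation was 0.777 between WT26 and RBC and 0.525 between WT26 and Mettl3 KO. How far this shared spread moved the changes below was not tested. The 200 genes ranked on WT26 alone, of which 149 are members, had median log2 ratios of 1.90 and 2.54 in RBC and 1.36 and 1.98 in the Mettl3 KO cells, a median change of -0.55 in replicate 1 and -0.58 in replicate 2, where other genes changed by -0.15 and 0.01. Of these genes 168 (84.0%) were lower in both numbers, against 45.7% of the other genes. No single gene passed the test, as edgeR and DESeq2 each called 0 of the 200 (and edgeR 0 of all features). At an unadjusted p under 0.05, 8 were lower and 0 higher in edgeR (all features 2.43% and 1.05%) and 9 lower in DESeq2. With a block for the replicate number, 83 were lower and 3 higher at that p. The share of all features at that p was not computed for DESeq2 or the blocked fit, so their counts have no background. The fitted median change of -0.55 moved with single pairs, to -1.04 without Mettl3 KO replicate 2, -1.02 without RBC replicate 1, -0.13 without Mettl3 KO replicate 1 and 0.058 without RBC replicate 2, where its sign changed. Each of these fits sets unlike replicate numbers of the lines against each other, and the ratios of same-numbered pairs deviated together (correlation of 0.552 between RBC and Mettl3 KO over 12716 genes), whereas within the numbers the change was -0.55 and -0.58 as given above. The 200 genes ranked on RBC alone, of which 130 are members, changed in Mettl14 KO against WT26 by medians of 0.087 in replicate 1 and -0.33 in replicate 2, where other genes changed by 0.11 and -0.24, and 60 (30.0%) against 24.1% were lower in both numbers. Here edgeR and DESeq2 called 0 genes, with 0 at an unadjusted p under 0.05 in either (all features in edgeR 0.256% higher and 0.301% lower), and the fitted median of -0.054 ranged from -0.56 without Mettl14 KO replicate 2 to 0.50 without WT26 replicate 2.

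Between the knockouts, which the rule did not use, 169 members were lower in Mettl3 KO than in Mettl14 KO cells in both replicate numbers, where 40.7% of all genes that passed the input minimum were, and 8 were higher in both. The fitted difference had a median of -0.57 and was negative in 186 of 200 members, but edgeR and DESeq2 called 0 (background 0%), with 6 lower and 0 higher at an unadjusted p under 0.05 in edgeR (all features 1.68% and 0.853%) and 7 lower in DESeq2. Blocking on the replicate number, 102 were lower at an unadjusted p under 0.05 and again 0 passed the adjusted threshold. The share of all features at that unadjusted p was not computed for DESeq2 or the blocked fit, so their counts have no background. Without Mettl14 KO replicate 2 the median difference was -0.016, without Mettl3 KO replicate 1 -0.21, without Mettl14 KO replicate 1 -0.98 and without Mettl3 KO replicate 2 -1.11. Knockout and parental line cannot be told apart in this contrast, since the knockouts come from different lines.

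RNA levels were tested in the separate RNA-seq libraries, which the rule did not use. Of the 200 members 193 passed the filter on low counts. The 7 that did not were Gm11175, Rsc1a1, Gm28198, Gm26635, Gm27232, Gm33051 and Gm26377, chosen here only because they failed it, and every one overlaps an exon of another gene, 5 on the opposite strand and 2 on the same strand. Such overlaps were also found in 52 and 17 of the 191 annotated members that passed the filter, so an overlap alone does not set the 7 apart. Gm26377 overlaps Eef1a1 and had an input CPM of 45.5 to 82.8 in the MeRIP-seq table but 0 reads in every RNA-seq library, and Rsc1a1 overlaps Ddi2 and had 11.8 to 18.6 CPM and 0 reads. Gm11175 had 5.49 to 16.6 CPM and 0 to 4.52 normalized RNA-seq counts. How either table assigned reads of overlapping genes is not given in the sources used here, and the MeRIP-seq values of these 7 members cannot be told apart from those of their partners.

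In Mettl14 KO against WT26, 23 of 193 members were lower (11.9%, where 6.57% of the 17021 genes tested were) and 0 were higher (background 7.95%) (called where the adjusted p did not exceed 0.05 and the log2 fold change was over 1 in size). Members had to pass the input minimum in every control input, which the genes tested did not. A gene low in the controls could thus rise in the background but could not be a member. Shares among the genes that passed the minimum were not computed, so the RNA-seq backgrounds here and below are not matched to the members. With edgeR at an unadjusted p under 0.05, 26 members were higher and 103 lower, and DESeq2 also called 0 higher and 23 lower. No share of all genes was taken at the unadjusted p. The median log2 fold change of members was -0.27, and that of all genes 0.00. In Mettl3 KO against RBC, 23 members were lower (11.9%, background 7.43%) and 4 higher (2.07%, background 6.15%), with medians of -0.18 in members and -0.002 in all genes. Scaling by library size moved the median of all genes in Mettl3 KO by 0.15, to 0.15, and that of members to -0.025, with 7 higher and 19 lower, so the members' median minus that of all genes was -0.18 and -0.17 in the 2 scalings. At the adjusted p alone, 24 members were higher and 99 lower in Mettl14 KO (all genes 25.5% and 27.0%), and 46 higher and 87 lower in the Mettl3 KO cells (25.2% and 28.1%). Here and in MeRIP-seq, both from bulk RNA, fewer cells of a type and less RNA per cell cannot be told apart.

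The markers of ES cells moved in the same libraries. The summed normalized counts of 8 ES markers, among them the member Sox2, were 35734 to 36774 in WT26, 25707 to 25927 in Mettl14 KO, 31674 to 32314 in RBC and 17759 to 18599 in the Mettl3 KO cells, and 0 of 8 were called in Mettl14 KO and 2 of 8 lower in Mettl3 KO. At the adjusted p alone all 8 were lower in both (all genes 27.0% and 28.1%). Their log2 changes were -0.17 to -0.79 in Mettl14 KO and -0.21 to -2.03 in the Mettl3 KO cells. The 6 primitive endoderm markers summed to 99.8 to 103 in WT26 and 308 to 323 in Mettl14 KO cells, with 5 of 6 called higher, and to 162 to 175 in RBC and 118 to 147 in the Mettl3 KO cells, with 1 called lower. The 6 fibroblast markers summed to 81.4 to 84.8 in WT26, 27.3 to 38.1 in Mettl14 KO, 103 to 116 in RBC and 44.3 to 62.4 in the Mettl3 KO cells, with Dcn at 0 in all 8 libraries. In this list 1 gene, Thy1, was called lower in both comparisons (log2 -2.03 and -2.62) and Col1a2 higher in Mettl3 KO (2.26), so the fall of the sum is that of Thy1, which held most of the counts in the control lines. The 7 neural markers, among them the member Nes, summed to 1054 to 1079 in WT26, 860 to 872 in Mettl14 KO, 1537 to 1539 in RBC and 1664 to 1725 in the Mettl3 KO cells. The neural markers moved both ways, with Neurod1 (-2.81) and Tubb3 (-1.09) called lower and Pax6 (1.96) higher in Mettl14 KO, and Neurod1 (-1.19) lower and Pax6 (1.21) higher in Mettl3 KO. The part of such shifts in the members' changes was not tested.

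**Figure D5:**
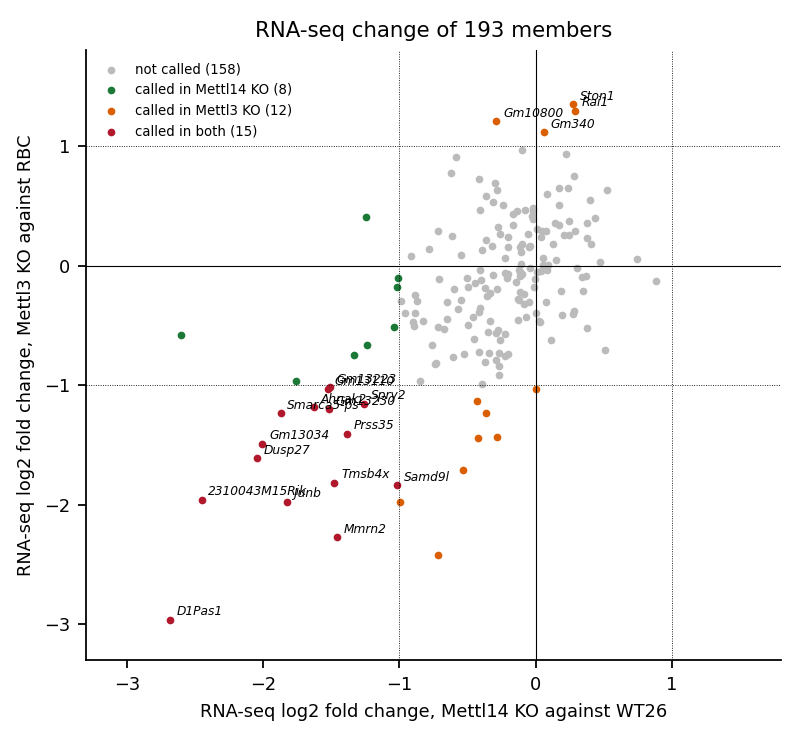
RNA-seq log2 fold change of 193 members in Mettl3 KO against RBC (y axis) and in Mettl14 KO against WT26 (x axis), with dotted lines at 1 and -1 and colours for the comparison in which a member was called. The 15 members called in both comparisons all lie in the lower left, and the 4 called rises are in Mettl3 KO cells only.

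The comparisons have no library in common, and 15 members were called lower in both, which is 65.2% of each list of 23, where among all genes 350 were, 31.3% of the 1118 lower in Mettl14 KO and 27.7% of the 1265 lower in the Mettl3 KO cells. Members had to pass the input minimum in both control lines, which the genes of the background did not. A gene with little RNA in either control line could hardly be called lower in both. The higher share of members thus follows in part from the rule, and a matched share was not computed. No member was called higher in both. Those 15 were D1Pas1, 2310043M15Rik, Dusp27, Junb, Mmrn2, Samd9l, Tmsb4x, Spry2, Prss35, Ahnak2, Gm13110 and 4 pseudogenes. D1Pas1, a gene for an RNA helicase of the DDX3 family at chr1:186967416-186970627, fell the most in both, with normalized counts of 282 and 329 (WT26), 54.1 and 40.9 (Mettl14 KO), 200.02 and 174 (RBC) and 17.4 and 31.2 (Mettl3 KO). The log2 fold changes were -2.68 ± 0.17 (adjusted p = 6.96e-10) and -2.96 ± 0.21 (adjusted p = 2.21e-09), and in neither comparison did the groups overlap. 2310043M15Rik had normalized counts of 323 and 359.7 (WT26), 65.1 and 59.4 (Mettl14 KO), 259 and 222 (RBC) and 59.1 and 64.5 (Mettl3 KO), and changed by -2.45 ± 0.13 (adjusted p = 7.31e-11) and -1.96 ± 0.14 (adjusted p = 2.05e-09). It was about as low in one knockout as in the other, with the limit set by its overlap with Dop1b. Junb encodes an AP-1 transcription factor that is induced within minutes of growth factor signals. Its normalized counts were 533 and 629 (WT26), 182 and 145 (Mettl14 KO), 635 and 648 (RBC) and 144 and 183 (Mettl3 KO), with changes of -1.82 ± 0.12 (adjusted p = 6.94e-10) and -1.98 ± 0.12 (adjusted p = 2.18e-10). The Junb libraries of both knockouts had similar counts, well under those of both controls.

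Signalling and cytoskeletal genes were among these common falls. Spry2, an inhibitor of receptor tyrosine kinase signalling, had normalized counts of 626 and 662 (WT26), 273 and 265 (Mettl14 KO), 718 and 663 (RBC) and 294 and 326 (Mettl3 KO), and changed by -1.26 ± 0.083 (adjusted p = 8.96e-10) and -1.16 ± 0.081 (adjusted p = 1.92e-09). Tmsb4x encodes thymosin beta 4, which binds actin monomers. Its normalized counts were 2608 and 2703 (WT26), 961 and 947 (Mettl14 KO), 2682 and 2941 (RBC) and 715 and 889 (Mettl3 KO), and the changes were -1.48 ± 0.072 (adjusted p = 2.06e-11) and -1.81 ± 0.073 (adjusted p = 1.55e-12). Its IP over input was no lower in Mettl3 KO than in RBC cells in replicate 2, with log2 ratios of 1.93 and 2.08 (WT26), 1.92 and 1.66 (Mettl14 KO), 2.26 and 1.98 (RBC) and 1.99 and 2.41 (Mettl3 KO). Mmrn2, a gene for an extracellular matrix glycoprotein of endothelium, had normalized counts of 549 and 587 (WT26), 215 and 199 (Mettl14 KO), 799 and 738 (RBC) and 163 and 155 (Mettl3 KO), and changed by -1.45 ± 0.087 (adjusted p = 2.45e-10) and -2.27 ± 0.088 (adjusted p = 8.98e-13). Dusp27 encodes an atypical dual-specificity phosphatase of muscle. Its normalized counts were 846 and 890.04 (WT26), 191 and 228 (Mettl14 KO), 923 and 915 (RBC) and 300.01 and 302 (Mettl3 KO), and the changes were -2.05 ± 0.084 (adjusted p = 2.38e-12) and -1.61 ± 0.079 (adjusted p = 1.99e-11). Prss35 (a serine protease-like protein), Ahnak2 (a large scaffold protein) and Samd9l (induced by interferon) changed by log2 -1.38, -1.63 and -1.01 in Mettl14 KO and -1.41, -1.19 and -1.84 in the Mettl3 KO cells. Samd9l was no longer past the fold limit in Mettl14 KO without replicate 1 of that line (-0.945).

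The 4 pseudogenes called lower in both lie on chromosome 4. Gm13230 (chr4:145446740-145450888), Gm13223 (chr4:145455633-145456379) and Smarca5-ps (chr4:145464204-145467420) follow each other on the plus strand, and Gm13034 (chr4:146067752-146070928) lies further along on the same strand. Gm13230, the most abundant of them in reads, had normalized counts of 2766 and 2724 (WT26), 930.4 and 989 (Mettl14 KO), 1643 and 1777 (RBC) and 764 and 726 (Mettl3 KO), and changed by -1.52 ± 0.054 (adjusted p = 4.43e-13) and -1.20 ± 0.056 (adjusted p = 9.6e-12). Smarca5-ps had normalized counts of 467 and 499 (WT26), 143 and 121 (Mettl14 KO), 215 and 234 (RBC) and 85.2 and 107 (Mettl3 KO), with -1.87 ± 0.11 (adjusted p = 2.22e-10) and -1.23 ± 0.13 (adjusted p = 2.87e-07). Gm13034 had 623 and 588 (WT26), 141 and 161 (Mettl14 KO), 302 and 323 (RBC) and 89.6 and 136 (Mettl3 KO) normalized counts, with -2.00 ± 0.12 (adjusted p = 3.02e-10) and -1.49 ± 0.14 (adjusted p = 5.95e-08). Each was higher in WT26 than in RBC cells and lower in each knockout than in its own control. Pseudogenes can share reads with their parent genes and with each other, so these counts are uncertain, and Gm13223 (log2 -1.02) dropped under the fold limit in Mettl3 KO cells under library size scaling (-0.867) and without replicate 1 of RBC (-0.953) or of Mettl3 KO (-0.809). Gm13110, a processed transcript at chr4:154645754-154655318, changed by log2 -1.52 and -1.04, and by -0.883 in the Mettl3 KO cells under library size scaling.

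The change in Mettl3 KO cells minus that in Mettl14 KO cells, a test added after the data were seen, was higher in 71 of 193 members (36.8%, background 20.8%) and lower in 38 (19.7%, background 22.4%) where the adjusted p did not exceed 0.05, and the parental lines are part of this contrast. In 5 members the changes had opposite signs, each past the adjusted p, and differed by over 1 on the log2 scale, where 4.18% of all genes did. Other members were called in one comparison. In Mettl14 KO cells Foxd3, a forkhead factor needed to keep ES cells, had normalized counts of 284 and 337 (WT26), 59.1 and 42.9 (Mettl14 KO), 270.1 and 266 (RBC) and 155 and 205 (Mettl3 KO). The change was -2.60 ± 0.17 (adjusted p = 5.34e-10) in Mettl14 KO and -0.58 ± 0.14 (adjusted p = 0.00146) in the Mettl3 KO cells, the latter under the fold limit, and the difference between the changes was 2.02 ± 0.22 (adjusted p = 1.03e-06). Gbx2, a homeobox factor that promotes self-renewal, had normalized counts of 409 and 413 (WT26), 133 and 110.1 (Mettl14 KO), 614 and 568 (RBC) and 271 and 335 (Mettl3 KO), and changed by -1.76 ± 0.12 (adjusted p = 9.91e-10) and -0.97 ± 0.099 (adjusted p = 2.32e-07), with a difference of 0.79 ± 0.16 (adjusted p = 0.000495). Its IP over input stayed high in Mettl14 KO cells (log2 ratios of 2.37 and 3.12) while its RNA was low. Also called in Mettl14 KO alone were Slfn9 (log2 -1.33), Ngfr (-1.23), a neurotrophin receptor, Mycn (-1.02), a MYC family factor, L1td1 (-1.01), an RNA-binding protein of ES cells, Bet1l (-1.04), a vesicle transport protein, and Gm38058 (-1.24).

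In Mettl3 KO cells the other falls included Bmp4, a TGF-beta family ligand of ES cells and the early embryo. Its normalized counts were 663 and 648 (WT26), 461 and 444 (Mettl14 KO), 1092 and 1048 (RBC) and 302 and 354 (Mettl3 KO), with a change of -1.71 ± 0.078 (adjusted p = 7.32e-12) in Mettl3 KO and -0.54 ± 0.077 (adjusted p = 1.5e-05) in Mettl14 KO cells. Tmem185b had normalized counts of 586 and 647 (WT26), 306 and 313 (Mettl14 KO), 763 and 801 (RBC) and 192 and 206 (Mettl3 KO), with -1.98 ± 0.084 (adjusted p = 3.23e-12) in Mettl3 KO and -0.99 ± 0.081 (adjusted p = 1.38e-08) in Mettl14 KO cells, the latter just under the fold limit. It was also one of the 6 members with the lowest IP over input in Mettl3 KO cells. Gm21060 (log2 -2.42), Chga (-1.44), which encodes the secretory granule protein chromogranin A, AI464131 (-1.44), Ckap4 (-1.13), an endoplasmic reticulum membrane protein, Rbmxl2 (-1.23), a germ cell RNA-binding protein, and Pdp2 (-1.03), a phosphatase that activates pyruvate dehydrogenase, made up the rest. The 4 rises were Ston1, an endocytic adaptor, Rai1, a chromatin-associated transcriptional regulator, Gm10800 and Gm340. Ston1 had normalized counts of 61.5 and 58.0 (WT26), 71.1 and 74.0 (Mettl14 KO), 86.2 and 69.0 (RBC) and 200.01 and 193 (Mettl3 KO), and rose by 1.35 ± 0.14 (adjusted p = 3.89e-07). Rai1 had 415 and 413 (WT26), 533 and 480.3 (Mettl14 KO), 487 and 428 (RBC) and 1155 and 1082 (Mettl3 KO) normalized counts, and rose by 1.29 ± 0.078 (adjusted p = 2.64e-10). Gm10800 had 238 and 269 (WT26), 187 and 227 (Mettl14 KO), 414 and 412 (RBC) and 1111 and 789 (Mettl3 KO) and Gm340 had 617 and 618 (WT26), 596 and 694 (Mettl14 KO), 423 and 419.96 (RBC) and 937 and 884 (Mettl3 KO), rising by log2 1.21 and 1.11. Gm10800 rose by 0.937 without Mettl3 KO replicate 1, under the fold limit, and whether its reads are shared with repeats was not tested.

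By function, 19 of 198 annotated members (9.60%) were C2H2 zinc finger factors by their symbols, against 3.37% of the other genes. Their median ratios were 2.25 in WT26, 2.06 in Mettl14 KO, 2.17 in RBC and 1.63 in the Mettl3 KO cells, close to those of all members. In RNA-seq edgeR and DESeq2 called 0 of them in either comparison, and their medians were -0.12 in Mettl14 KO and 0.29 in the Mettl3 KO cells. At an unadjusted p under 0.05 in edgeR, 3 were higher and 7 lower in Mettl14 KO and 11 higher and 4 lower in the Mettl3 KO cells. Of 511 tested genes of the list, 122 were higher and 177 lower in Mettl14 KO at that p, and 206 and 105 in the Mettl3 KO cells. With the adjusted p and the fold limit, 20 of the 511 were called higher and 31 lower in Mettl14 KO and 20 and 14 in the Mettl3 KO cells. Klf2 and Klf4, Kruppel-like factors of the pluripotency network, are in this group. Klf4 had log2 ratios of 1.74 and 2.83 (WT26), 1.93 and 2.44 (Mettl14 KO), 1.94 and 2.57 (RBC) and 1.10 and 1.58 (Mettl3 KO). Its RNA-seq counts were 1437 and 1375 (WT26), 1131 and 1052 (Mettl14 KO), 1255 and 1230.3 (RBC) and 1868 and 1852 (Mettl3 KO), with changes of -0.37 ± 0.053 (adjusted p = 1.48e-05) and 0.58 ± 0.052 (adjusted p = 3.95e-08), neither past the fold limit. Klf2 had log2 ratios of 2.07 and 3.11 (WT26), 1.83 and 2.78 (Mettl14 KO), 1.99 and 2.94 (RBC) and 1.43 and 1.93 (Mettl3 KO), lowest in Mettl3 KO cells in both numbers. Zfp62, the last member, had 1130.4 and 1075 (WT26), 835 and 827 (Mettl14 KO), 1153 and 1231 (RBC) and 1601 and 1691 (Mettl3 KO) normalized counts and changed by -0.41 ± 0.058 (adjusted p = 1.26e-05) and 0.46 ± 0.055 (adjusted p = 1.55e-06).

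Another 7 members (3.54% of the annotated, against 1.32% of the other genes) were sequence-specific transcription factors of other families, namely Foxd3, Jund, Junb, Sox2, Arid5b, Mycn and Nr0b1. All 7 had log2 ratios above 1 in both Mettl3 KO pairs and were enriched in Mettl14 KO cells, 3 of them (Foxd3, Junb and Mycn) were called lower in RNA-seq in Mettl14 KO and 1 (Junb) in the Mettl3 KO cells, and edgeR and DESeq2 called 0 higher. Of all 222 tested genes of that list, 18 were higher and 18 lower in Mettl14 KO and 24 higher and 13 lower in the Mettl3 KO cells. Sox2, a core pluripotency factor, had log2 ratios of 1.71 and 2.77 (WT26), 2.00 and 2.97 (Mettl14 KO), 1.87 and 2.75 (RBC) and 1.75 and 2.41 (Mettl3 KO). Its normalized RNA-seq counts were 1951 and 2056 (WT26), 1400.1 and 1336 (Mettl14 KO), 2184 and 2106 (RBC) and 1577 and 1947 (Mettl3 KO), with -0.55 ± 0.071 (adjusted p = 4.31e-06) and -0.29 ± 0.07 (adjusted p = 0.00224), under the fold limit in both. Nr0b1, a nuclear receptor of ES cells on the X chromosome, had log2 ratios of 1.68 and 2.04 (WT26), 1.62 and 2.02 (Mettl14 KO), 1.61 and 1.99 (RBC) and 1.81 and 1.87 (Mettl3 KO), with the highest value of replicate 1 in the Mettl3 KO cells. Nanog, another pluripotency factor, ranked 1454 with a lowest control ratio of 1.001 and is not a member.

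The 5 members Ier2, Klf2, Jund, Junb and Klf4 (2.53% of the annotated, against 0.177% of the other genes) were immediate early genes, which are transcribed quickly after a stimulus. Of them 1, Junb, was called lower in each comparison, whereas of 37 tested genes of the list 9 were lower and 5 higher in Mettl14 KO and 11 lower and 2 higher in the Mettl3 KO cells. Ier2 had normalized counts of 1193 and 1316 (WT26), 916 and 827 (Mettl14 KO), 1176 and 1111 (RBC) and 652 and 719 (Mettl3 KO), with -0.52 ± 0.07 (adjusted p = 5.93e-06) and -0.74 ± 0.072 (adjusted p = 1.16e-07), under the fold limit. Jund had 776 and 1006 (WT26), 1219.9 and 1130.1 (Mettl14 KO), 709 and 625 (RBC) and 665 and 849 (Mettl3 KO), with 0.40 ± 0.11 (adjusted p = 0.00435) and 0.18 ± 0.11 (adjusted p = 0.191). Ier2 and Jund had changes of opposite sign in Mettl14 KO cells.

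Developmental signalling was represented by the ligands Nodal, Bmp4 and Inhbb (an activin subunit), the receptor Fzd10, the inhibitor Spry2, and Dusp27, which the list took in by its symbol. That list held 3.03% of the annotated members and 0.738% of the other genes. At the adjusted p alone, 5 of the 6 were lower in Mettl14 KO and 6 of 6 in the Mettl3 KO cells (all genes 27.0% and 28.1%). Past the fold limit as well were 2 (Spry2 and Dusp27) and 3 (with Bmp4). With that limit, 18 of 149 tested genes of the list were higher and 12 lower in Mettl14 KO and 23 and 16 in the Mettl3 KO cells. At an unadjusted p under 0.05 in edgeR, all 6 members were lower in each comparison. Of the 149 genes, 61 were higher and 44 lower in Mettl14 KO at that p, and 58 and 44 in the Mettl3 KO cells. Nodal had normalized counts of 931 and 969 (WT26), 676 and 752 (Mettl14 KO), 1098 and 1126 (RBC) and 673 and 678 (Mettl3 KO), with -0.41 ± 0.065 (adjusted p = 3.84e-05) and -0.72 ± 0.065 (adjusted p = 4.34e-08). Inhbb had 2856 and 3138 (WT26), 1542 and 1487 (Mettl14 KO), 4044 and 4115 (RBC) and 3151 and 3496 (Mettl3 KO) normalized counts, with -0.98 ± 0.058 (adjusted p = 2.18e-10) and -0.30 ± 0.056 (adjusted p = 0.000228). In both genes each knockout lay below its control without overlap. All 6 had log2 ratios above 1 in both Mettl3 KO pairs, with a median of the means of 1.81.

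The remaining lists held few members. The ubiquitin list held 3.54% of the annotated members and 2.72% of the other genes. For the adhesion list these shares were 2.02% and 0.807%, and for the kinase and phosphatase list 2.02% and 2.67%. There were 7 ubiquitin ligase or adaptor genes (Fbxo46, Klhl11, Fbxl14, Trim13, Rnf26, Klhl26 and Pja1), with 0 called in RNA-seq by edgeR or DESeq2 and, at an unadjusted p under 0.05 in edgeR, 2 higher and 1 lower in Mettl14 KO and 3 higher and 2 lower in the Mettl3 KO cells. Klhl11 had normalized counts of 476 and 545 (WT26), 716 and 661 (Mettl14 KO), 504 and 473 (RBC) and 651 and 636 (Mettl3 KO), changing by 0.43 ± 0.079 (adjusted p = 0.00016) and 0.40 ± 0.08 (adjusted p = 0.000384). Of the 400 tested genes of that list, 24 were called higher and 11 lower (Mettl14 KO) and 21 and 6 (Mettl3 KO). At the unadjusted p, 107 of the 400 were higher and 134 lower (Mettl14 KO) and 143 and 98 (Mettl3 KO). The median of the 7 members' mean ratios in Mettl3 KO cells was 1.94, with Klhl26 as the low exception. The adhesion list held Cldn4, a tight junction protein, and the protocadherins Pcdhga8, Pcdhga2 and Pcdhga1, which share exons. Here edgeR and DESeq2 called 0 of the 4, where of its 182 tested genes 21 were called higher and 23 lower (Mettl14 KO) and 13 and 30 (Mettl3 KO). At an unadjusted p under 0.05 in edgeR, 2 members were lower in each comparison. At that p, 49 of the 182 were higher and 71 lower (Mettl14 KO) and 33 and 71 (Mettl3 KO). Ing1 and Phf23, histone methylation readers, were the chromatin regulators, Tob1 the RNA-binding regulator and S1pr2, a sphingosine phosphate receptor, the G protein-coupled receptor. Of these 4, edgeR and DESeq2 called 0 in either comparison, and at an unadjusted p under 0.05 in edgeR Ing1 and Phf23 were lower and S1pr2 higher in Mettl14 KO, and Ing1 lower and Tob1 higher in the Mettl3 KO cells. The calls over the whole lists were 6 higher and 7 lower (Mettl14 KO) and 12 and 6 (Mettl3 KO) of 225 chromatin regulators tested, 7 and 5, and 7 and 7, of 217 RNA-binding regulators, and 14 and 19, and 14 and 16, of 91 G protein-coupled receptors. At the unadjusted p these lists had, in the same order, 72 higher and 91 lower, and 98 and 52, then 49 and 90, and 62 and 89. The receptors had 30 higher and 29 lower, and 27 and 26. The kinase and phosphatase list held Irs2, Dyrk3, Dusp27 and, by its symbol alone, Ckap4, of which only Dusp27 and, in Mettl3 KO cells, Ckap4 were called, both lower, and of its 375 tested genes 26 were higher and 19 lower (Mettl14 KO) and 16 and 15 (Mettl3 KO). No member belonged to the lists of m6A writers, of m6A readers and erasers, of axon guidance or of cell cycle genes. These lists held only 0.0886%, 0.128%, 0.295% and 0.689% of the other genes, so their absence is not read as a result about the members. Of the 9 writers and 13 readers and erasers tested in RNA-seq, edgeR and DESeq2 called 0 in either comparison. At an unadjusted p under 0.05 in edgeR, 3 writers were higher and 4 lower in Mettl14 KO, 6 higher and 1 lower in Mettl3 KO, and of the readers and erasers 3 were higher and 8 lower, and 4 higher and 1 lower.

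By structure, the single-exon coding members had a median mean ratio of 1.76 in the Mettl3 KO cells, those with 2 exons 1.65, with 3 or 4 exons 1.58 and with 5 or more 1.45, and in RBC cells the medians were 2.32, 2.21, 2.17 and 2.14. The change from RBC was -0.54, -0.59, -0.60 and -0.64 in that order, and these medians are given as a description with no test. In RNA-seq 4 of 7 pseudogenes were called lower in each comparison, against 4 and 6 of 43 single-exon coding members and 6.57% and 7.43% of all genes tested. The 4 are the chromosome 4 pseudogenes described above, whose reads may be shared.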

How the data were processed

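Nuclear RNA of 4 mouse ES cell lines was measured by MeRIP-seq (input and m6A IP, 16 libraries) and RNA-seq (8 libraries), with 2 biological replicates per group. The authors deposited raw read counts, per gene for RNA-seq and per gene and repeat subfamily (47937 genes, 1153 subfamilies) for MeRIP-seq, and nothing was normalized before deposit. The submitters' processing notes name cutadapt 1.8.1 and STAR 2.6.0c on GRCm38 for both, and FastQC and DESeq2 1.26.0 for RNA-seq. The study counted MeRIP-seq reads with TEtranscripts, which shares reads with several positions, and combined several MeRIP reactions into each replicate. The counting tool of the RNA-seq table and the strand setting of both tables are not given in the sources used here. Every column of the tables belonged to a labelled sample (0 left over).

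CPM were computed over the gene rows of a library. The counts were fitted by edgeR 4.0.16 under R 4.3.3 (glmQLFit and glmQLFTest, quasi-likelihood), with DESeq2 1.42.0 size factors, filterByExpr and Benjamini-Hochberg adjustment over all features tested (17021 in RNA-seq, 22621 in MeRIP-seq), all groups of a table in one fit. The p-values rest on the spread between the 2 replicates within groups, pooled over all groups of a table and shared in part across genes. They are thus not set by the replicates of the compared groups alone. Calls needed an adjusted p not over 0.05 and a log2 fold change over 1 in size. Both IP ratios and size factors are relative to the other reads of the same libraries, with no spike-in used here, so a change shared by most transcripts would not show. Counting error at these depths is smaller than the spread between replicates, which sets the precision. Input and IP of 1 number come from the same RNA, and their deviations from the group means correlated at 0.214 to 0.302 in every line (12716 genes). Fits were tested on simulated data.

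Members and gene lists were chosen with earlier results of these data known. The lists match gene symbols. Named members are the 12 of highest rank, those beside the limit, the 6 highest and 6 lowest by IP over input in each knockout, the 8 largest called RNA-seq changes in each direction, those called in both RNA-seq comparisons, the 4 highest ranked of each list, and Klf4, Sox2 and Nanog. One gene that this rule names is not reported here. Others were chosen after their values were seen. Alternatives were DESeq2, TMM normalization, library size scaling, other filters, the adjusted p alone, replicate blocks, fits on the libraries compared, leaving out each replicate and other forms of the rule. A block on the replicate number within input and within IP, and the difference between the RNA-seq changes of the knockouts, were added after seeing the data. Gene structures and windows come from the GENCODE annotation of GRCm38, which matched 198 of 200 members. Figures were drawn with matplotlib 3.10.9 in Python 3.11.15. Peak calls and repeats were not used here.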

Additional observations from a re-analysis of the deposited data

Results flagged for a closer look

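In 5 members the RNA-seq changes of the knockouts had opposite signs, each at an adjusted p of at most 0.05 in edgeR, and differed by over 1 on the log2 scale, which 711 of 17021 genes tested did (4.18%, and 5 of 193 members is of the same order). The test of the difference was added after seeing the data, and the parental lines differ too. Epop changed by -0.71 (Mettl14 KO) and 0.29 (Mettl3 KO), with a difference of 1.002 ± 0.16 (adjusted p = 5.12e-05). Klf2 changed by -0.62 and 0.77, with a difference of 1.39 ± 0.13 (adjusted p = 1.14e-07). Phax, an adaptor of small nuclear RNA export, changed by -0.58 and 0.91, with a difference of 1.49 ± 0.13 (adjusted p = 6.9e-08). D130040H23Rik changed by -0.41 and 0.72, with a difference of 1.14 ± 0.14 (adjusted p = 3.26e-06). Tlr2, a receptor of innate immunity, changed the other way, by 0.51 and -0.70, with a difference of -1.21 ± 0.20 (adjusted p = 8.61e-05). Klf2 had normalized counts of 648 and 723 (WT26), 452 and 438 (Mettl14 KO), 359 and 305 (RBC) and 537 and 592 (Mettl3 KO), so that the control lines themselves differed. Phax had normalized counts of 261 and 263 (WT26), 177 and 173 (Mettl14 KO), 269 and 296 (RBC) and 512 and 549 (Mettl3 KO), with similar counts in both controls. Tlr2 had normalized counts of 128 and 108 (WT26), 153 and 184 (Mettl14 KO), 167 and 156 (RBC) and 103 and 94.7 (Mettl3 KO). In these genes neither knockout overlapped its control.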

How the results depend on the processing

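With 2 replicates per group, the spread between replicate numbers in MeRIP-seq limits what can be called. The RNA-seq counts of called members, 23 (Mettl14 KO) and 27 (Mettl3 KO), changed at most to 22 to 26 and 26 to 29 under the other fits, and with the replicate number as a block they were again 23 and 27, though at the adjusted p alone they were 123 and 133. No label ties RNA-seq numbers to a shared source, and deviations of same-numbered libraries correlated at -0.17 to 0.45 between lines, highest between RBC and Mettl3 KO and under 0.1 for most pairs of lines. Members enriched in Mettl14 KO cells numbered 194 and 195 to 199 under the other fits (199 with either block), and 0 to 188 without one replicate of that line. Members enriched in Mettl3 KO cells numbered 70, but 152 with DESeq2, 182 with library size scaling, 184 with no filter on low counts, 180 in a fit on the libraries compared, 183 with the replicate number as a block and 0 to 0 without one replicate, and 47 with a block on pairs. The share of all features called differed between fits as well, and the cause was not tested. The calls of differences between lines in IP over input were 0 in every fit run. Of the 200 members, 138 to 190 stayed under other pseudocounts, input minima, size factors or the mean of ratios, and 136 to 190 without one control replicate. Of 38 RNA-seq calls of named members, 34 passed every alternative run, and 0 reversed.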
